A study of Homo sapiens with 6 samples.

Results

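The genes described here encode the machinery that brings new proteins into the endoplasmic reticulum (ER), cuts and glycosylates them and folds them there, together with sensors and output genes of the unfolded protein response. A list of 50 gene symbols, fixed with earlier results of these data known, was looked up in the table. All 50 were found among its 19876 symbols. They comprise 6 translocon genes, 7 of the signal recognition particle and its receptor, 4 of the translocon-associated complex, 5 of signal peptidase, 7 of oligosaccharyl transferase, 8 disulfide isomerases and oxidases, 3 of the lectin chaperone cycle and 10 of the unfolded protein response. RNA sequencing was done on A549, an established human lung adenocarcinoma line labelled wild type, grown in DMEM with fetal bovine serum. The rhTR11B group held 3 libraries from cells cultured with rhTR11B, and the PBS group held 3 libraries from cells cultured with phosphate-buffered saline as negative control. What rhTR11B stands for is not written out in the labels, nor are its dose and time; TR11B is used elsewhere for osteoprotegerin (TNFRSF11B), a decoy receptor that cells secrete. They call the libraries biological replicates without saying whether these came from separate cultures, so the spread behind each p-value is that of these libraries and could be technical.

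The libraries held 36315751 to 36992958 counts with rhTR11B and 37203313 to 38148838 counts with PBS. Mitochondrially encoded genes took 7.88% to 10.4% of counts with rhTR11B and 6.63% to 7.71% with PBS, and genes named for cytosolic ribosomal proteins took 3.85% to 4.57% with rhTR11B and 5.00% to 5.15% with PBS. Replicate 3 of rhTR11B stood apart on the first principal component of log2 CPM, at 25.7, against 2.66 and 8.63 for the other rhTR11B libraries and -18.4 to -5.96 for the PBS libraries. Of 6 epithelial markers, the keratins KRT8, KRT18 and KRT7 were at 351 to 961 CPM (counts scaled by TMM-adjusted library size) in every library, while KRT19, EPCAM and CDH1 stayed below 1 CPM in every library. Summed, these markers gave 1890 to 1980 CPM with rhTR11B and 1940 to 2060 CPM with PBS. The 3 endothelial markers in the table summed to 0.192 to 0.241 CPM with rhTR11B and 0.131 to 0.416 CPM with PBS, and the 5 fibroblast markers to 4.29 to 6.46 CPM with rhTR11B and 2.75 to 3.70 CPM with PBS. Most of the fibroblast sum was COL1A1, with 4.88, 5.44 and 3.87 CPM with rhTR11B and 3.34, 2.57 and 3.31 CPM with PBS. The other 4 fibroblast markers stayed below 1 CPM in every library. In bulk RNA, a different level per cell and a different mix of cells cannot be told apart.

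Proteins destined for secretion, membranes or lysosomes carry a signal that the signal recognition particle binds as it leaves the ribosome. The ribosome then docks on the Sec61 channel, signal peptidase removes the signal, oligosaccharyl transferase adds a sugar tree to asparagines, and calnexin, calreticulin and the disulfide isomerases fold the chain. When unfolded protein accumulates, the sensors IRE1 (ERN1), PERK (EIF2AK3) and ATF6 raise the output of this machinery and lower protein synthesis. In lung epithelium and in tumours derived from it the same machinery serves secreted and surface glycoproteins.

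The promoter elements through which ATF6, XBP1 and ATF4 are known to act were looked up as letters in the 250 bases before annotated starts. In the textbook scheme the unfolded protein response reaches genes through such elements. A member without a match in these windows is not thereby outside that response. A gene with several annotated starts had several windows, and a match in any of them counted. RefSeq promoter windows (GRCh38.p14), 35116 windows for 27305 genes, matched 46 of the 50 symbols. PDIA3, STT3B, SPCS1 and RPN1 were not matched, so these members were not searched for any element. The ER stress element ERSE (CCAAT, any 9 bases, then CCACG, on either strand) was found for 5 of the 46, PDIA6, ERO1B, CALR, CANX and XBP1. It was found for 0.0916% of all 27305 genes. Its shorter form ERSE-II (ATTGG, any base, then CCACG, on either strand) was found for HERPUD1 and SDF2L1 and for 0.0659% of all genes. Both elements end in the same letters, but no member site matched both. The sites of PDIA6 and CANX precede an inner start and lie within the span of the gene. These spans are chromosome 2, 10783391 to 10837712, for PDIA6 and chromosome 5, 179678656 to 179731641, for CANX. In the 60-base windows below, written 5′ to 3′ on the strand of the gene, capitals mark the match.
PDIA6, ERSE, chr2:10812832-10812891, minus strand: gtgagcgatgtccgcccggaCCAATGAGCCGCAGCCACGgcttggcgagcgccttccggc
CALR, ERSE on the opposite strand, chr19:12938364-12938423, plus strand: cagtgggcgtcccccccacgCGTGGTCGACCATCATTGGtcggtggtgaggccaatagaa
CANX, ERSE, chr5:179698758-179698817, plus strand: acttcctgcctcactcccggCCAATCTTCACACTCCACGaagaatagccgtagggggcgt
ERO1B, ERSE on the opposite strand, chr1:236282149-236282208, minus strand: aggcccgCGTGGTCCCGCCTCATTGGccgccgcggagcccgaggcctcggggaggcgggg
XBP1, ERSE, chr22:28800582-28800641, minus strand: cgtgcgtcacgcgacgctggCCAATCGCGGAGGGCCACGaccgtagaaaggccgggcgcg
HERPUD1, ERSE-II, chr16:56932001-56932060, plus strand: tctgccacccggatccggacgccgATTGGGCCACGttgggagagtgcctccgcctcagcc
SDF2L1, ERSE-II on the opposite strand, chr22:21642090-21642149, plus strand: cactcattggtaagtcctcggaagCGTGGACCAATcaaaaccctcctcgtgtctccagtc
A window of the ER chaperone HSPA5, the gene in which the element is best known, is shown beside them.
HSPA5, ERSE, chr9:125241370-125241429, minus strand: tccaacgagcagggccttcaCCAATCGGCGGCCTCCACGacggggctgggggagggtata

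Letters of the XBP1 and ATF6 element UPRE (TGACGTGG, either strand) were found for SEC62, SRP19, SSR3, SSR4 and TXNDC5 and for 0.78% of all genes with a window. Letters of the ATF4 element CARE (TGATGCAA, either strand) were found for HERPUD1 and CHAC1 and for 0.967% of these genes. A match is a description of the letters and no evidence of binding. Fold changes of the members with each element are given with their role groups below.

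In cells given rhTR11B, PDIA3, ERO1A and ATF6 rose, each by at most 1.21-fold, and SEC61G fell to 0.804 of its PBS level. The other 46 members did not pass. Calls were made with edgeR's quasi-likelihood test at a Benjamini-Hochberg adjusted p under 0.05 over all 13567 genes that passed a filter on low counts, which all 50 members passed. Higher calls made up 6.0% of the members against 2.92% of all genes tested, and lower calls 2.0% of the members against 0.678%. Set beside the whole table, 3 and 1 calls are too few to be a result about the members.

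The members nevertheless leaned upward by small amounts. The median log2 fold change was 0.14 over the 50 members and 0.00 over all genes tested, and 34 members had a positive and 16 a negative value. In 22 members, 44.0%, every rhTR11B library lay above every PBS library, against 15.1% of all genes tested. The opposite held for SEC61G and DDIT3, 4.0% of the members against 14.0% of all genes tested. At an unadjusted p under 0.05, 23 members were higher, 46.0% against 13.8% of all genes tested, and 4 were lower, 8.0% against 10.3%.

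Replicate 3 of rhTR11B carried much of this lean. It was the highest of the 6 libraries for 36 of 50 members, 72.0% against 31.2% of all genes tested. The median deviation of the members from their PBS mean on the log2 scale was 0.07, 0.05 and 0.27 in rhTR11B replicates 1, 2 and 3, against 0.02, -0.02 and 0.00 in PBS replicates 1, 2 and 3. All 3 rhTR11B libraries were thus above all PBS libraries, with a wide gap between replicate 3 and the other rhTR11B libraries. Without rhTR11B replicate 3 the members' median log2 fold change was 0.07, and PDIA3 and ERO1A were the members that passed. Without any 1 of the PBS libraries no member passed edgeR's test, while at an unadjusted p under 0.05 there were 18 higher and 3 lower members without PBS replicate 1, 16 and 3 without replicate 2, and 13 and 4 without replicate 3. The mitochondrial share of counts was also highest, and the ribosomal protein share lowest, in rhTR11B replicate 3. Their part in these values was not tested beyond a fit without the 13 mitochondrially encoded genes, in which the same 4 members passed and the members' median was 0.15.

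**Figure D1:**
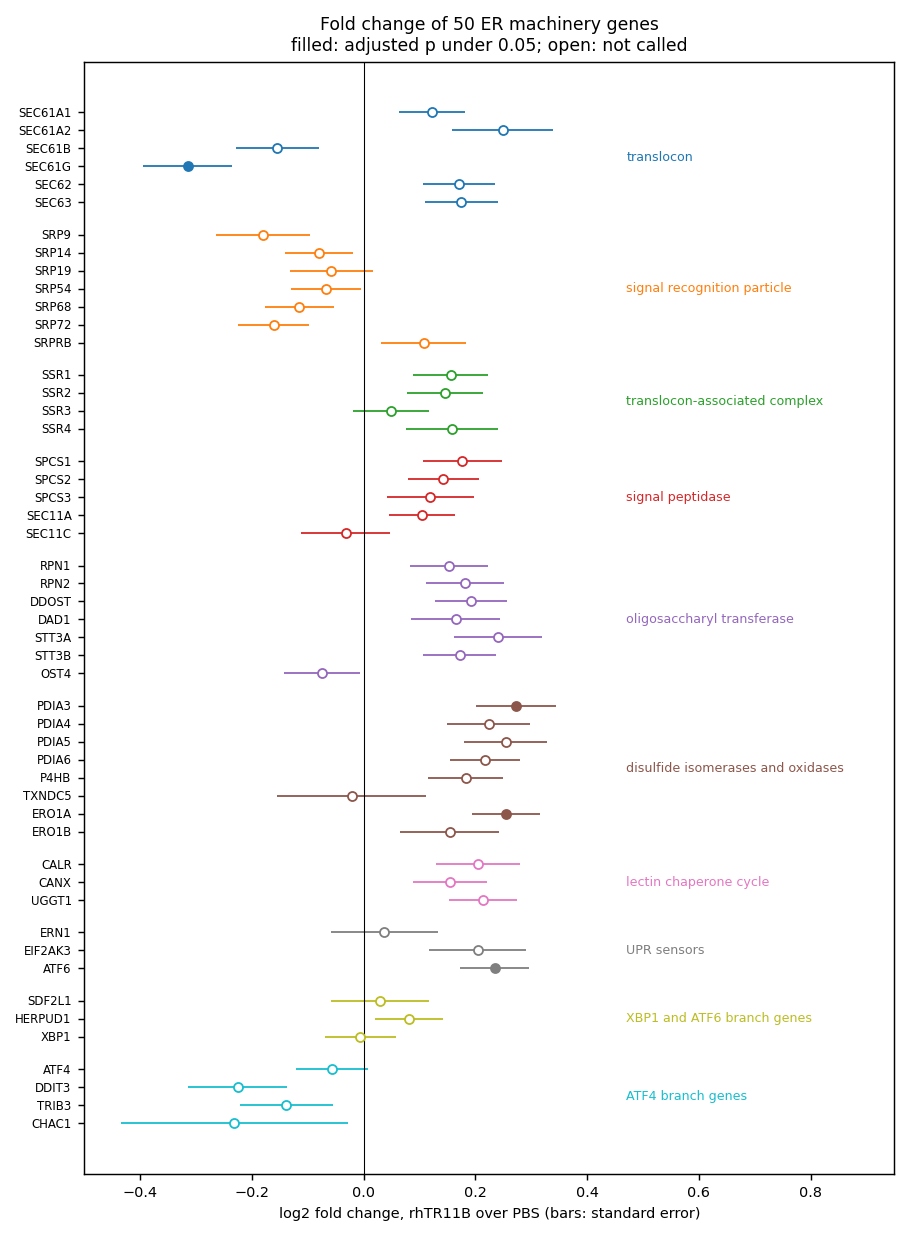
Log2 fold change of each of the 50 members, rhTR11B over PBS, with its standard error, grouped by role. Filled points are the 4 members with an adjusted p under 0.05, SEC61G on the left of 0 and PDIA3, ERO1A and ATF6 on the right, and the isomerase, lectin and glycosylation groups lie mostly right of 0 while the signal recognition particle and ATF4 branch groups lie mostly left of it.

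**Figure D2:**
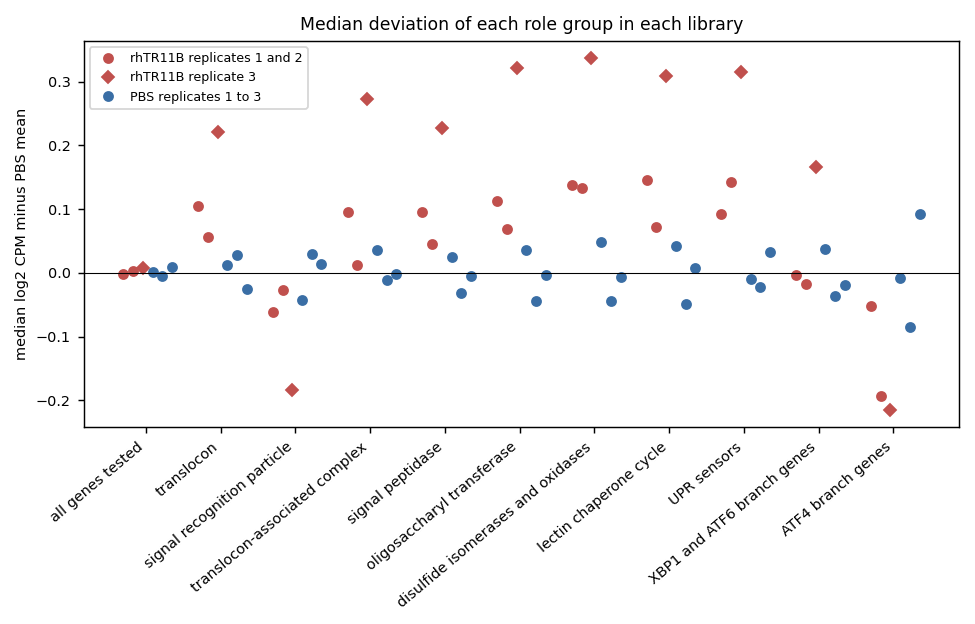
Median deviation of each role group from its PBS mean, on the log2 CPM scale, in each library, with all 13567 tested genes at the left. Diamonds mark rhTR11B replicate 3, which reached 0.34 for the isomerases and oxidases and -0.18 for the signal recognition particle, while the all-gene medians stayed between -0.00 and 0.01.

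Levels between genes are given in the authors' FPKM values, which divide by gene length, as means over 3 libraries with SD. Calreticulin, CALR, was the most abundant member at 603 ± 62.7 FPKM with rhTR11B and 530 ± 19.1 FPKM with PBS, above 99.5% of tested genes. The disulfide isomerase P4HB followed at 375 ± 25.7 FPKM with rhTR11B and 335 ± 10.4 FPKM with PBS, then the glycosylation subunit RPN2 at 273 ± 24.0 FPKM with rhTR11B and 244 ± 7.63 FPKM with PBS. RPN2 and PDIA4, next in the order at 270 ± 27.7 FPKM with rhTR11B and 234 ± 9.44 FPKM with PBS, did not differ beyond their spread. At the low end were the sensor ERN1, at 1.40 ± 0.147 FPKM with rhTR11B and 1.38 ± 0.0708 FPKM with PBS, and CHAC1, a glutathione-degrading enzyme induced through ATF4, at 0.426 ± 0.0425 FPKM with rhTR11B and 0.506 ± 0.135 FPKM with PBS. CALR, CANX, P4HB, PDIA3, PDIA4 and PDIA6 thus stood near the top of the order, while other folding genes (PDIA5, ERO1A, UGGT1, ERO1B and TXNDC5) stood lower, as did the 3 sensors. The length behind the CHAC1 and ATF4 values, 6081 and 7716 bases, exceeds the 2058 and 2514 exon bases that GENCODE 29 gives them, which lowers their FPKM. To a smaller extent the same holds for ERO1B (8212 against 5361 bases) and STT3B (6549 against 5012 bases). It enters their FPKM ratios given below in both groups alike. TXNDC5, at 1.80 ± 0.154 FPKM with rhTR11B and 1.85 ± 0.193 FPKM with PBS, shares 60.6% of its exon bases with the read-through gene BLOC1S5-TXNDC5 on the same strand, so its level may be split between them.

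**Figure D3:**
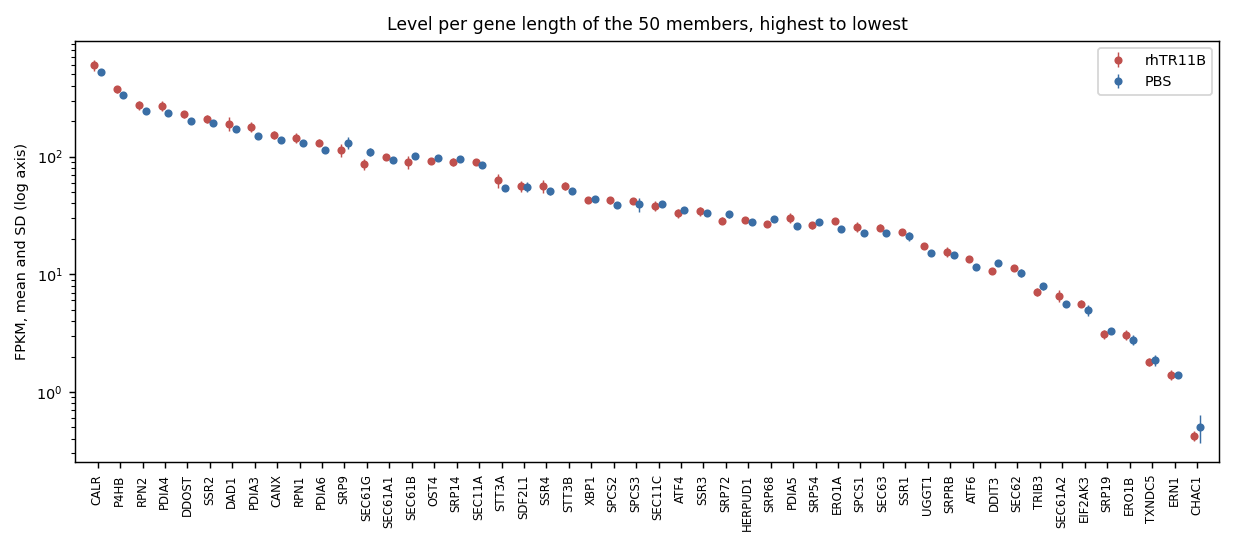
Mean FPKM with SD (n = 3 per group, log axis) of the 50 members, ordered from highest to lowest by their mean over all libraries. CALR stands at the top and CHAC1 at the bottom, and within each gene the rhTR11B and PBS points lie close together beside the spread between genes.

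The translocon is built from the channel SEC61A1 (or its paralog SEC61A2) with the small tail-anchored subunits SEC61B and SEC61G, and SEC62 and SEC63 help proteins that enter after synthesis. Of its 6 genes SEC61G fell and the others did not pass. SEC61G (chromosome 7, 54752253 to 54759211 on GRCh38.p14) had 40.5, 37.6 and 32.8 CPM in rhTR11B replicates 1, 2 and 3, against 44.2, 49.8 and 44.0 CPM in PBS replicates 1, 2 and 3. Every rhTR11B library was lower than every PBS library, and replicate 3 was the lowest. It fell, with a log2 fold change of -0.31 (SE 0.08, adjusted p = 0.0395). The channel gene SEC61A1 had 355, 342 and 380 CPM with rhTR11B and 329, 324 and 337 CPM with PBS, groups that did not overlap and that differed the other way, yet it did not pass (0.12, SE 0.06, adjusted p = 0.212). SEC61B had 57.6, 49.1 and 46.2 CPM with rhTR11B and 57.1, 56.0 and 57.1 CPM with PBS. Here rhTR11B replicate 1 lay at the level of the PBS libraries, and the gene did not pass (-0.15, adjusted p = 0.212).

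Ratios within a library do not depend on scaling between libraries. The FPKM of SEC61G over that of SEC61A1 was 0.956, 0.923 and 0.726 in rhTR11B replicates 1, 2 and 3, against 1.13, 1.29 and 1.10 in PBS replicates 1, 2 and 3. The ratio of SEC61B to SEC61A1 was 1.03, 0.908 and 0.769 with rhTR11B, against 1.10, 1.09 and 1.07 with PBS. For both ratios the rhTR11B libraries were all lower than the PBS libraries. For SEC61G this follows from the levels above, with SEC61G lower and SEC61A1 higher in every rhTR11B library, and adds no separate evidence. These ratios were not tested, and SEC61G was the 1 channel subunit that passed. SEC61A2 had 21.3, 18.8 and 24.2 CPM with rhTR11B and 18.3, 17.4 and 18.4 CPM with PBS, without overlap, and did not pass (0.25, SE 0.09, adjusted p = 0.105). Its FPKM was 6.58 ± 0.751 with rhTR11B and 5.61 ± 0.142 with PBS, far below SEC61A1 at 100 ± 3.99 FPKM with rhTR11B and 92.9 ± 1.19 FPKM with PBS, and as a paralog it may exchange reads with it. SEC62 and SEC63 had log2 fold changes of 0.17 and 0.17 (adjusted p = 0.119 and 0.115), each with all rhTR11B libraries above all PBS libraries.

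**Figure D4:**
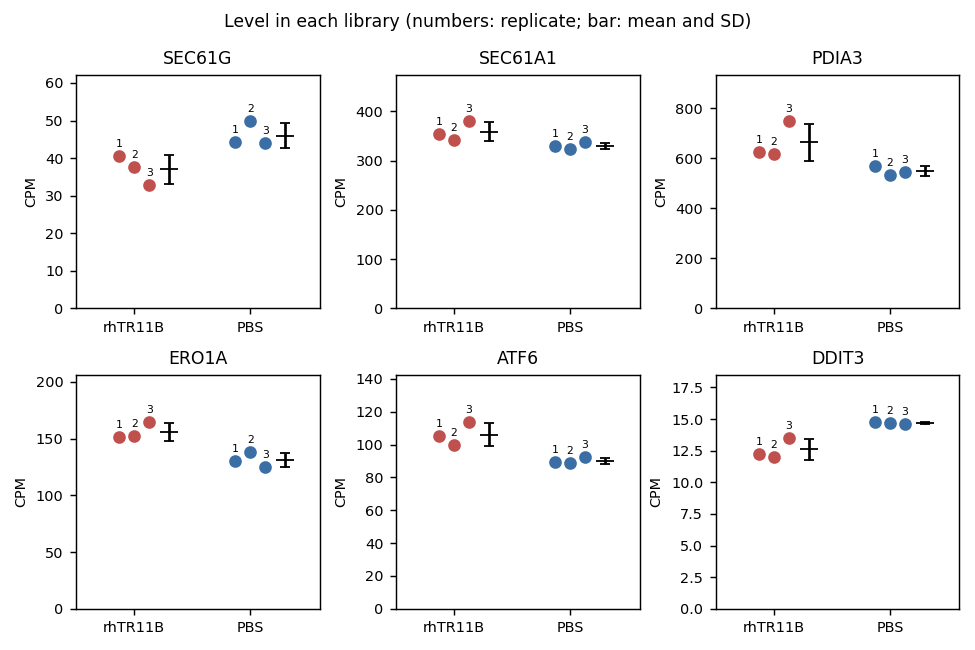
CPM in each library for the 4 members that passed and for SEC61A1 and DDIT3, with the replicate number above each point and the group mean and SD beside it. In each of the 6 genes the rhTR11B points lie wholly above or wholly below the PBS points, below for SEC61G and DDIT3.

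Of the 7 genes of the signal recognition particle and its receptor, none passed edgeR's test. At an unadjusted p under 0.05, 2 were lower, SRP72 and SRP9, 28.6% against 10.3% of all genes tested. The 6 genes of the cytosolic particle all had negative log2 fold changes, and SRPRB, the receptor subunit that sits in the ER membrane, had a positive one of 0.11 (adjusted p = 0.411). This contrast between the particle and its receptor was seen in the values and not tested. SRP72, which together with SRP68 forms a large heterodimer of the particle, had 131, 121 and 116 CPM with rhTR11B, against 130, 146 and 135 CPM with PBS. The groups overlapped, since rhTR11B replicate 1 lay above PBS replicate 1, and SRP72 did not pass (-0.16, SE 0.06, adjusted p = 0.134). SRP9, which with SRP14 pauses elongation, had 188, 204 and 161 CPM with rhTR11B, against 206, 234 and 187 CPM with PBS (-0.18, SE 0.08, adjusted p = 0.196), with overlap. SRP14, SRP19, SRP54, the subunit that binds the signal, and SRP68 had log2 fold changes from -0.12 to -0.06, with overlap in each. The group median was -0.08, and -0.03 without rhTR11B replicate 3. In rhTR11B replicate 3, 6 of the 7 genes had their lowest value of the 6 libraries, 85.7% against 30.0% of all genes tested.

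The translocon-associated complex SSR1 to SSR4 helps weak signals open the channel. None of its 4 genes passed edgeR's test, 2 had an unadjusted p under 0.05, and the groups overlapped in all 4, with a median log2 fold change of 0.15 (0.06 without rhTR11B replicate 3). SSR1 had 219, 213 and 243 CPM with rhTR11B, against 206, 215 and 185 CPM with PBS (0.16, SE 0.07, adjusted p = 0.167). SSR2 had 234, 213 and 258 CPM with rhTR11B, against 218, 201 and 218 CPM with PBS (0.15, SE 0.07, adjusted p = 0.201). In both, rhTR11B replicate 3 was the highest library and replicate 2 lay among the PBS libraries. SSR4 and SSR3 had log2 fold changes of 0.16 and 0.05. All 4 were highest in rhTR11B replicate 3, as were 31.2% of all genes tested.

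Signal peptidase cuts the signal with SEC11A or SEC11C as catalytic subunit, and SPCS1 to SPCS3 complete the complex. None of these 5 genes passed edgeR's test, and 2 had an unadjusted p under 0.05. The 5 genes had a median of 0.12 on the log2 scale (0.07 without rhTR11B replicate 3). SPCS1 had 92.7, 87.6 and 108 CPM with rhTR11B, against 84.8, 82.6 and 87.4 CPM with PBS (0.18, SE 0.07, adjusted p = 0.135). SPCS2 had 113, 108 and 126 CPM with rhTR11B, against 108, 103 and 104 CPM with PBS (0.14, SE 0.06, adjusted p = 0.180). In both the rhTR11B libraries were all higher, for SPCS2 by a margin of less than 1 CPM between the nearest libraries. SPCS1 shares 58.1% of its exon bases with genes on the opposite strand, GLT8D1 and NEK4, and since the strand setting of the counting is not stated, their reads cannot be told apart from its own. Neither catalytic paralog passed. SEC11A had 111, 111 and 121 CPM with rhTR11B, against 106, 109 and 103 CPM with PBS (0.10, SE 0.06, adjusted p = 0.290), and SEC11C had 36.9, 33.4 and 41.1 CPM with rhTR11B, against 39.8, 35.6 and 38.6 CPM with PBS (-0.03, SE 0.08, adjusted p = 0.840). The sign for SEC11C turned without rhTR11B replicate 2, where the log2 fold change was 0.04. The FPKM of SEC11C over that of SEC11A was 0.422 ± 0.0266 with rhTR11B and 0.466 ± 0.0369 with PBS (SD, n = 3 each), and the groups overlapped. SPCS3 had a log2 fold change of 0.12 with overlap.

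Oligosaccharyl transferase transfers the preassembled sugar tree. STT3A carries the active site of the form bound to the channel and STT3B that of the form that acts on sites the first has missed, while RPN1, RPN2, DDOST, DAD1 and OST4 are shared. None of the 7 genes passed edgeR's test, although 5 had an unadjusted p under 0.05, all higher, and those 5 had no overlap between the groups. That was 71.4% of the genes, against 13.8% of all genes tested higher at that p and 15.1% higher without overlap. The group median log2 fold change was 0.17, and 0.10 without rhTR11B replicate 3. STT3A had 291, 267 and 354 CPM with rhTR11B, against 260, 255 and 257 CPM with PBS (0.24, SE 0.08, adjusted p = 0.0778). Its rhTR11B libraries were widely spread, with replicate 2 close to the PBS libraries and replicate 3 far above them. Without rhTR11B replicate 3 its log2 fold change was 0.12. DDOST had 429, 424 and 489 CPM with rhTR11B, against 401, 377 and 398 CPM with PBS (0.19, SE 0.06, adjusted p = 0.0864). STT3B had 348, 363 and 405 CPM with rhTR11B, against 338, 337 and 315 CPM with PBS (0.17, SE 0.06, adjusted p = 0.117), so all rhTR11B libraries were higher for both. Exons of PINK1-AS on the same strand cover 15.7% of the exon bases of DDOST.

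The balance of the catalytic subunits showed no separation of the groups. The FPKM of STT3B over that of STT3A was 0.904 ± 0.0813 with rhTR11B and 0.940 ± 0.0369 with PBS, with overlap. RPN1, RPN2 and DAD1 had log2 fold changes of 0.15, 0.18 and 0.17. The exception was OST4, the smallest subunit, a short membrane peptide, with 43.7, 40.1 and 39.1 CPM with rhTR11B and 43.3, 41.7 and 44.5 CPM with PBS (-0.07, adjusted p = 0.527). The FPKM of OST4 over that of STT3A was 1.63, 1.63 and 1.20 in rhTR11B replicates 1, 2 and 3, against 1.81, 1.78 and 1.88 in PBS replicates 1, 2 and 3, without overlap. Exons of AGBL5 on the opposite strand cover 21.0% of the exon bases of OST4.

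Of the 8 disulfide isomerases and oxidases that recharge them, 2 rose, 25.0% against 2.92% of all genes tested. These calls are too few to be a result about the group. In 6 of the 8 all rhTR11B libraries lay above all PBS libraries, 75.0% against 15.1% of all genes tested. The 8 genes had a median of 0.22 on the log2 scale (0.14 without rhTR11B replicate 3). PDIA3 (chromosome 15, 43746438 to 43773278), the isomerase that works with calnexin and calreticulin on glycoproteins and also sits in the class I peptide-loading complex, had 625, 618 and 747 CPM with rhTR11B, against 570, 534 and 543 CPM with PBS. All rhTR11B libraries were higher, replicate 3 by the widest margin. It rose 1.21-fold (log2 fold change 0.27, SE 0.07, adjusted p = 0.0451). Genes on the opposite strand overlap 18.9% of its exon bases. ERO1A (chromosome 14, 52639915 to 52695558), the main oxidase that passes disulfides to P4HB, had 151, 152 and 165 CPM with rhTR11B, against 130, 138 and 125 CPM with PBS. The rhTR11B libraries were close together and all higher, and ERO1A rose 1.19-fold (0.25, SE 0.06, adjusted p = 0.0323). With any 1 library left out its log2 fold change lay between 0.21 and 0.29.

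The paralog ERO1B had 22.9, 24.7 and 27.9 CPM with rhTR11B, against 22.5, 24.8 and 20.6 CPM with PBS, with overlap (0.15, SE 0.09, adjusted p = 0.298). Its FPKM over that of ERO1A was 0.107 ± 0.00561 with rhTR11B and 0.115 ± 0.00505 with PBS, with overlap, so ERO1A made up most of the ERO1 transcripts in both groups. The isomerases PDIA5, PDIA4, PDIA6 and P4HB had log2 fold changes of 0.25, 0.22, 0.22 and 0.18 (adjusted p = 0.0591, 0.0811, 0.0590 and 0.107), and in each of them all rhTR11B libraries lay above all PBS libraries. PDIA6, whose promoter window holds an ERSE, had 410, 391 and 455 CPM with rhTR11B, against 367, 358 and 355 CPM with PBS. Exons of ATP6V1C2 on the opposite strand cover 25.2% of its exon bases. TXNDC5 had -0.02 (adjusted p = 0.942).

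Calnexin (CANX) and calreticulin (CALR) hold glycoproteins by their trimmed sugars, and UGGT1 adds a glucose back to chains that are not yet folded. None of the 3 passed edgeR's test, but each had an unadjusted p under 0.05 and in each all rhTR11B libraries lay above all PBS libraries. Of all genes tested, 13.8% were higher at that p and 15.1% were higher without overlap. UGGT1 had 207, 194 and 221 CPM with rhTR11B, against 184, 173 and 180 CPM with PBS (0.21, SE 0.06, adjusted p = 0.0568). CALR had 1108, 1050 and 1307 CPM with rhTR11B, against 1031, 955 and 1020 CPM with PBS (0.20, SE 0.08, adjusted p = 0.108). The rhTR11B replicate 2 value of CALR was close to the highest PBS value. CANX had 0.15 (adjusted p = 0.167). Without rhTR11B replicate 3 the group median was 0.11, against 0.20 with all libraries.

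Of the 3 sensors, ATF6 rose. ATF6 (chromosome 1, 161766320 to 161964070) is cut in the Golgi to release a transcription factor that induces ER chaperones. It had 105, 99.5 and 114 CPM with rhTR11B, against 89.6, 88.7 and 92.2 CPM with PBS. The PBS libraries were tightly grouped and all below the rhTR11B libraries, and ATF6 rose 1.18-fold (0.23, SE 0.06, adjusted p = 0.0451). Its adjusted p was 0.0601 without rhTR11B replicate 3 and 0.0549 with library size alone as scaling. EIF2AK3 (PERK), which slows translation, had 25.7, 28.0 and 30.0 CPM with rhTR11B, against 27.0, 24.0 and 21.7 CPM with PBS, with overlap (0.20, SE 0.09, adjusted p = 0.160). ERN1 (IRE1), which splices XBP1 mRNA, had 0.04 (adjusted p = 0.849).

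The 3 members listed as output genes of the XBP1 and ATF6 branch, SDF2L1, HERPUD1 and XBP1, did not separate the groups. SDF2L1, a cofactor of ER chaperones, had 45.4, 41.5 and 52.9 CPM with rhTR11B, against 46.5, 40.7 and 49.8 CPM with PBS (0.03, SE 0.09, adjusted p = 0.876). HERPUD1, which serves ER-associated degradation, had 79.1, 82.3 and 88.3 CPM with rhTR11B, against 80.8, 77.6 and 77.7 CPM with PBS (0.08, SE 0.06, adjusted p = 0.438). XBP1 had 80.2, 83.2 and 88.5 CPM with rhTR11B, against 90.0, 82.1 and 80.8 CPM with PBS (-0.01, SE 0.06, adjusted p = 0.969). In all 3 the groups overlapped and no unadjusted p was under 0.05. Counts per gene do not separate spliced from unspliced XBP1. Among the members with an ERSE the log2 fold change thus ran from -0.01 for XBP1 through 0.15 for ERO1B and CANX to 0.20 for CALR and 0.22 for PDIA6, and those with an ERSE-II had 0.03 and 0.08. Of the genes shown above with an ERSE, PDIA6, CALR, CANX and HSPA5 had all rhTR11B libraries above all PBS libraries. For ERO1B and XBP1 the groups overlapped. Of 16 tested ER chaperones outside the members, 12 had all rhTR11B libraries higher, 75.0% against 15.1% of all genes tested. Members with the UPRE letters had 0.17 (SEC62), -0.06 (SRP19), 0.05 (SSR3), 0.16 (SSR4) and -0.02 (TXNDC5).

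The ATF4 branch had a median log2 fold change of -0.18 over 4 genes, each below 0, and none passed edgeR's test. DDIT3 (CHOP), a transcription factor that favours cell death under lasting stress, had 12.2, 12.0 and 13.5 CPM with rhTR11B, against 14.8, 14.7 and 14.6 CPM with PBS. The PBS libraries were nearly equal and all above the rhTR11B libraries, and DDIT3 had an unadjusted p of 0.0201 (-0.23, SE 0.09, adjusted p = 0.130). Here rhTR11B replicate 3 was the rhTR11B library nearest to PBS. Exons of MARS and MBD6 on the opposite strand cover 31.6% of the exon bases of DDIT3. TRIB3, a pseudokinase that restrains ATF4, had 23.1, 22.5 and 20.4 CPM with rhTR11B, against 24.0, 22.4 and 26.4 CPM with PBS, with overlap (-0.14, SE 0.08, adjusted p = 0.318). ATF4 itself had -0.06 (adjusted p = 0.625). CHAC1, whose window holds the CARE letters, had -0.23 with an SE of 0.20 at about 3 CPM. The group median was -0.05 without PBS replicate 3. Other genes known as ATF4 targets, taken from the further lists below, did not share the sign throughout, and none of those named here passed. DDIT4 had 0.22, SLC3A2 0.16, SESN2 0.16, STC2 0.15, SLC7A11 0.09 and ASNS 0.04 as log2 fold change, while ATF3 had -0.03 and NUPR1 -0.18. Of these, DDIT4 and STC2 had an unadjusted p under 0.05.

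Genes of the same pathway outside the 50 were read from 5 further lists with 95 genes in the table. These lists, like the members, were chosen with earlier results of these data known, so their shares are no independent support. Of the 95 genes 93 were tested. Of these, 5 rose in edgeR's test, 5.4% against 2.92% of all genes tested, and none fell, against 0.678%. At an unadjusted p under 0.05, 37 were higher, 39.8% against 13.8%, and 2 were lower, 2.2% against 10.3%. Their median log2 fold change was 0.13, against 0.14 for the members. Among 16 tested ER chaperones all had positive log2 fold changes (median 0.17) and 2 rose, ERP29, a chaperone of secretory proteins, and SIL1, the exchange factor of HSPA5. ERP29 had 152, 145 and 170 CPM with rhTR11B, against 137, 120 and 128 CPM with PBS (0.28, adjusted p = 0.0344), and SIL1 had 28.0, 30.7 and 33.1 CPM with rhTR11B, against 26.2, 24.1 and 25.1 CPM with PBS (0.28, adjusted p = 0.0496). The groups did not overlap in either. Exons of other genes on the opposite strand cover 17.5% of the exon bases of ERP29 and 9.3% of those of SIL1. The abundant chaperones HSPA5 and HSP90B1 did not pass, with 0.17 (adjusted p = 0.151) and 0.23 (adjusted p = 0.0611), although all rhTR11B libraries lay above all PBS libraries.

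In 3 of the other 4 lists 1 gene rose. ATF6B, the paralog of ATF6, had 114, 113 and 145 CPM with rhTR11B, against 104, 91.8 and 102 CPM with PBS (0.32, adjusted p = 0.0429). It was 1 of 16 other stress response genes tested (median 0.10). FAF2, which draws the ATPase VCP to ER-associated degradation, had 150, 148 and 163 CPM with rhTR11B, against 130, 128 and 133 CPM with PBS (0.24, adjusted p = 0.0362), and was 1 of 16 degradation genes (median 0.14). ALG1, a mannosyltransferase of the sugar precursor, had 68.9, 63.8 and 74.1 CPM with rhTR11B, against 61.3, 54.9 and 57.5 CPM with PBS (0.25, adjusted p = 0.0489), and was 1 of 28 other N-glycosylation genes (median 0.16, 26 positive). For these 3 genes the rhTR11B libraries were all higher. Exons of other genes cover 22.2% of the exon bases of ALG1 on the same strand and 21.9% on the opposite strand. None of 17 other targeting and insertion genes passed edgeR's test, and their median was 0.07. At an unadjusted p under 0.05, 4 of them were higher, 23.5% against 13.8% of all genes tested, and 1 was lower, 5.9% against 10.3%.

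The members that ran against the lean included the shortest ones. Gene length, taken from the FPKM values, was 425 bases for SEC61G, 442 for OST4 and 564 for SEC61B, the 3 shortest members, and all 3 had negative log2 fold changes. The 6 members under 1 kb, which add DAD1, SDF2L1 and SEC11C, had a median of -0.05, the 18 members from 1 to 3 kb 0.14 and the 26 from 3 kb upward 0.16. In the same classes all genes tested had medians of -0.05, -0.03 and 0.01. Across the 50 members Spearman's rho between length and log2 fold change was 0.30, and across all 13567 genes tested it was 0.12, where genes share libraries and are not independent replicates. The part of length in these values was not tested.

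**Figure D5:**
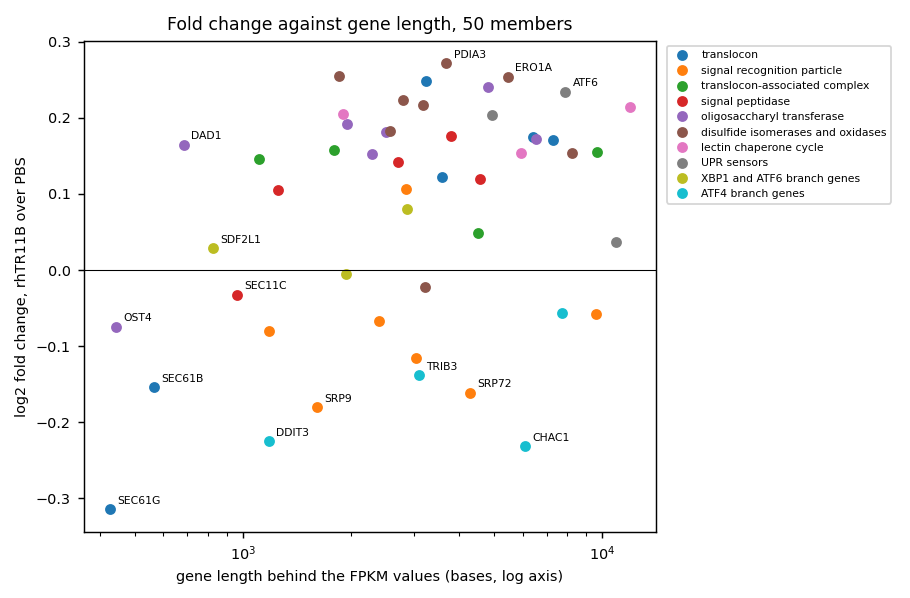
Log2 fold change of the 50 members against the gene length behind the FPKM values (log axis), coloured by role. SEC61G, OST4 and SEC61B lie at the short end below 0, and DAD1, the next in length, lies above it at 0.17.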

How the data were processed

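Read counts and FPKM values per gene symbol were deposited by the authors for 6 A549 libraries. The submitters' processing notes name fastp, HISAT, HTSeq, R 3.2.0 and DESeq2 with genome build GRCh38, and the labels' protocols name TRIzol and the VAHTS Universal V6 kit. The annotation, strand setting and tool roles: not given in the sources used here. The deposited FPKM values equal the count divided by a gene length and the library total for 100% of 102463 nonzero values (relative tolerance 0.001), and lengths were taken from them.

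The deposited counts were analysed in R 4.3.3, where edgeR 4.0.16 kept genes by filterByExpr (minimum count 10), scaled by TMM and ran the quasi-likelihood test with no term but the group and Benjamini-Hochberg adjustment over 13567 genes. A standard error is the log2 fold change divided by the square root of F. Deviations from the PBS mean used log2(CPM + 0.01). With at least 36315751 counts a library, the biological coefficient of variation was 0.0656. Counting error adds to it for the lowest members, such as CHAC1. Library pairs within a group had a chi-square per degree of freedom of 5.35 to 26.3, above sampling noise, so each counted as 1 sample. The test was checked on simulated counts. Gene coordinates and promoters are from RefSeq (GRCh38.p14), and exon overlaps from GENCODE 29.

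The members and lists were chosen with earlier results of these data known. Named with full values were members that passed, the 2 members of each role group with the smallest p, 4 pairs of paralogs, HSPA5 and HSP90B1, and called genes of the other pathway lists. Markers whose rows were not in hand are not analysed here. Alternatives were DESeq2 size factors, library size alone, DESeq2 1.42.0, limma-voom (limma 3.58.1), other filters, limma-trend on log2 FPKM with pseudocounts of 1 or 0.1, the replicate number as a block and leaving out each library. A fit without mitochondrially encoded genes was added after the data were seen.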

Additional observations from a re-analysis of the deposited data

How the results depend on the processing

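Directions held for SEC61G, PDIA3, ERO1A and ATF6 in all 17 alternatives, but their calls did not: they passed in 8, 10, 11 and 8 of them, with adjusted p from 0.00124 to 0.257, 0.00194 to 0.262, 0.00424 to 0.246 and 0.0128 to 0.246. With all libraries 396 genes were higher and 92 lower, with 3 and 1 members among them. The counts were 728 and 348 with the Wald test of DESeq2, with 9 members higher; 940 and 483 with no filter on low counts, with 10 and 2 members; and 205 and 26 at a mean of at least 5 CPM, with 1 and 0 members. With limma-trend on log2(FPKM + 0.1) they were 64 and 22, and on log2(FPKM + 1) 62 and 21, with 0 and 0 members in both, where 17 and 4 members had an unadjusted p under 0.05. On log2(FPKM + 1) with no filter limma called 0 genes higher and 0 lower, with 3073 genes, 10 higher and 3 lower members among them, at an unadjusted p under 0.05. With the replicate number as a block the counts were 774 and 252, with 6 members higher. Deviations of same-numbered libraries correlated at -0.10, 0.05 and -0.01, and those of unlike-numbered libraries at -0.10 to 0.11. With so few libraries a group, these values cannot decide whether the numbers pair the samples. With 1 library left out, 9 to 903 genes were higher and 3 to 427 lower, with 0 to 7 and 0 to 2 members, and the lowest gene counts came without PBS replicate 3. The members' median stayed between 0.07 and 0.18, that of the lectin cycle between 0.11 and 0.26 and that of the ATF4 branch between -0.21 and -0.05 (-0.051 without PBS replicate 3, -0.18 with all libraries). The members' median was 0.13 with library size alone, where all genes had -0.02. The causes of these shifts were not tested. Depth limits the lowest member, CHAC1, which had 89 to 153 counts a library.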

Other observations

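Genes of ER exit were listed after the members' values had been seen, and 1 of 32 passed. Among 20 cargo and retrieval receptors, which are membrane proteins, all had positive log2 fold changes (median 0.15), 11 were higher at an unadjusted p under 0.05 (55.0% against 13.8% of all genes tested), and 1 rose in edgeR's test (5.0% against 2.92%), the KDEL receptor KDELR1, which returns ER chaperones from the Golgi. KDELR1 had 311, 304 and 357 CPM with rhTR11B, against 275, 254 and 274 CPM with PBS (0.27, SE 0.07, adjusted p = 0.0344), with all rhTR11B libraries higher. KDELR3, KDELR2, TMED10 and TMED9 had 0.27, 0.21, 0.24 and 0.24 (adjusted p = 0.0547, 0.0732, 0.0516 and 0.0664). Among 12 genes of the coat that buds vesicles from the ER, most of them cytosolic proteins, 9 had negative values (median -0.06) and none passed edgeR's test, with 2 lower at an unadjusted p under 0.05 (16.7% against 10.3% of all genes tested). SEC13 had the lowest value of the coat list, -0.17 (adjusted p = 0.0871). The receptors were highest in rhTR11B replicate 3 in 18 of 20 genes, 90.0% against 31.2% of all genes tested. The difference between the 2 lists was not tested.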
